A study of Sus scrofa with 36 samples.

Results

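BDNF, brain-derived neurotrophic factor, was followed in the hippocampus of young piglets across 3 milk diets and 5 set codes. It was represented by 1 probe set of 23999 on the porcine array, the only one that carried its symbol, or 1 of 6765 genes named there, and it passed the filter on low signals. The 36 samples came from male Landrace by Large White piglets, 12 per feeding group, which entered the study at day 3 and were sampled at day 38. All groups drank a milk replacer. Controls received it with only its basal lactoferrin content, for which the labels state no amount. The medium-dose group received 0.6 g/L and the high-dose group 1.2 g/L of lactoferrin, a milk protein that binds iron. Sample codes in the labels begin with S1 to S5, which are not explained there and serve here as set codes, and S1 has controls and high-dose samples only. The labels name no litter or pen, so p-values measure the spread between these samples.

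BDNF is a secreted growth factor of neurons. It is made as a precursor, packed into dense-core vesicles, cut by proprotein convertases or by plasmin, and acts through the receptor tyrosine kinase TrkB. In the hippocampus its transcript is made mainly by excitatory neurons and rises with their activity.

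Levels are log2 values, so a difference of 1 is a doubling. Array medians lay between 6.6 and 6.7. Of 18 neuron markers 11 were named on the array and all 11 passed the filter, while none of the 8 excitatory neuron markers was named there. High-dose replicate 2 stood apart, with the lowest mean correlation with the other arrays (0.961), the lowest mean of neuron markers (10.7) and the highest mean of oligodendrocyte markers (11.7). It also had the lowest BDNF level, 8.1. A polyadenylated spike-in control was present on 26 arrays and absent on 10. In whole tissue, fewer cells of a type and less RNA per cell cannot be told apart.

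BDNF was highest on average in the medium-dose group, but no difference between diets passed adjustment over all probe sets. In controls it ran from 8.4 through a median of 8.8 to 9.3. In the medium-dose group it ran from 8.4 through 9.25 to 9.6, and in the high-dose group from 8.1 through 9.05 to 9.3. The 3 ranges overlapped, although 10 of 12 medium-dose samples lay above the control median and 5 lay above the highest control. Of the high-dose samples, 7 of 12 lay above the control median, none above the highest control, and 1 below the lowest. The group means were 8.82 ± 0.23 in controls, 9.20 ± 0.36 at the medium dose and 8.93 ± 0.37 at the high dose (SD, n = 12 each).

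**Figure D1:**
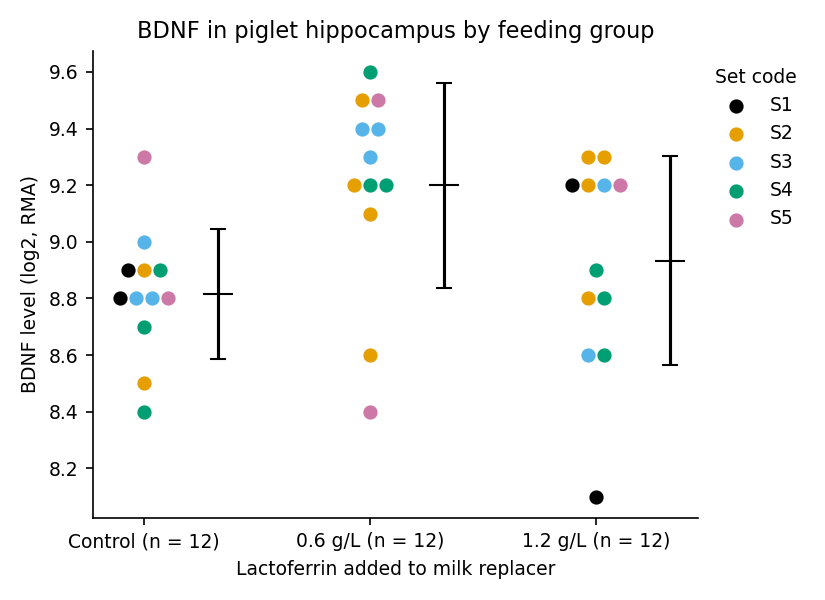
BDNF level (log2) of each of the 36 samples by feeding group, coloured by set code, with the mean and SD of each group of 12 beside the points. The medium-dose mean, 9.20, is above the control mean, 8.82, and the ranges overlap; the lowest point, 8.1, is high-dose replicate 2.

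With the set code as a block, BDNF was 0.36 higher at the medium dose than in controls (SE 0.14, 95% interval 0.08 to 0.63), a ratio of 1.28. The unadjusted p was 0.0126 and the Benjamini-Hochberg adjusted p from limma was 0.617. In this comparison limma called 0 of 18006 probe sets at an adjusted p under 0.05 (0%), and 1248 (6.93%) had an unadjusted p under 0.05. BDNF was the 364th smallest p among them. Permuting the diet labels within set codes 100000 times gave a two-sided p of 0.0278 for the BDNF difference.

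The high dose gave a smaller difference. BDNF was 0.12 above control (SE 0.13, 95% interval -0.15 to 0.39, limma adjusted p = 0.981, permutation p = 0.353). Both doses were compared with the same controls. In this comparison too limma called 0 probe sets (0%), with 889 (4.94%) at an unadjusted p under 0.05. High dose minus medium dose was -0.23 (SE 0.14, 95% interval -0.51 to 0.04, limma adjusted p = 0.811, permutation p = 0.138), against 0 probe sets called (0%) and 1076 (5.98%) unadjusted. One F test over the 3 groups gave an unadjusted p of 0.0393 and an adjusted p of 0.833, with 0 called (0%) and 1061 (5.89%) unadjusted.

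With diet and set code fitted as separate terms, BDNF varied more between piglets than most transcripts. Its residual SD was 0.34 on the log2 scale, against a median of 0.169 over all probe sets tested, which placed it at the 94.1st percentile. The means of tissue markers and of a sign of RNA quality were also taken by diet, and their differences were not tested. The mean of oligodendrocyte markers was 10.4 ± 0.17 at the medium dose, 10.7 ± 0.33 in controls and 10.7 ± 0.36 at the high dose (SD, n = 12 each). The mean of neuron markers was 11.7 ± 0.14, 11.6 ± 0.21 and 11.6 ± 0.31 in the same order. The 3-prime minus 5-prime actin difference, which is larger where RNA is less intact, was 3.05 ± 0.67, 2.73 ± 0.37 and 2.80 ± 0.40. With the neuron and oligodendrocyte means as covariates, the medium-dose difference in BDNF was 0.31 (limma adjusted p = 0.502). With the actin difference as a covariate it was 0.34 (limma adjusted p = 0.41), and the F test over the 3 groups gave an unadjusted p of 0.0645.

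Within set codes, the medium-dose samples lay above the controls in S3 and S4. In S3 the controls read 8.8, 8.8 and 9.0 and the medium-dose samples 9.3, 9.4 and 9.4. In S4 the controls read 8.4, 8.7 and 8.9 and the medium-dose samples 9.2, 9.2 and 9.6. Neither pair of groups overlapped, and the exact permutation p of 0.1 in each is the smallest that 3 against 3 allows. The share of all probe sets that separate these groups is not given here. In S3 the actin difference separated the same samples, at 2.7, 2.7 and 3.0 in controls and 3.2, 3.7 and 3.7 at the medium dose. The oligodendrocyte mean did so too, at 10.52 to 10.73 in controls and 10.27 to 10.51 at the medium dose. In S4 both measures overlapped between these groups. Their part in the BDNF difference within S3 was not tested. In S2 the controls read 8.5 and 8.9 and the medium-dose samples 8.6, 9.1, 9.2 and 9.5, a mean difference of 0.40 (exact permutation p = 0.267). In S5 the controls read 8.8 and 9.3 and the medium-dose samples 8.4 and 9.5, a mean difference of -0.10. Without S4 the fitted difference over all samples was 0.24, and without S5 it was 0.46.

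The high-dose samples followed no single order within set codes. In S2 they read 8.8, 9.2, 9.3 and 9.3, a mean difference of 0.45 from the controls, and in S4 8.6, 8.8 and 8.9, a mean difference of 0.10. In S3 they read 8.6 and 9.2, a mean difference of 0.03 from the controls, and in S5 the single sample read 9.2. In S1 the controls read 8.8 and 8.9 and the high-dose samples 8.1 and 9.2, a mean difference of -0.20. Without S2 the fitted high-dose difference fell to 0.00026, and without high-dose replicate 2 it was 0.21.

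**Figure D2:**
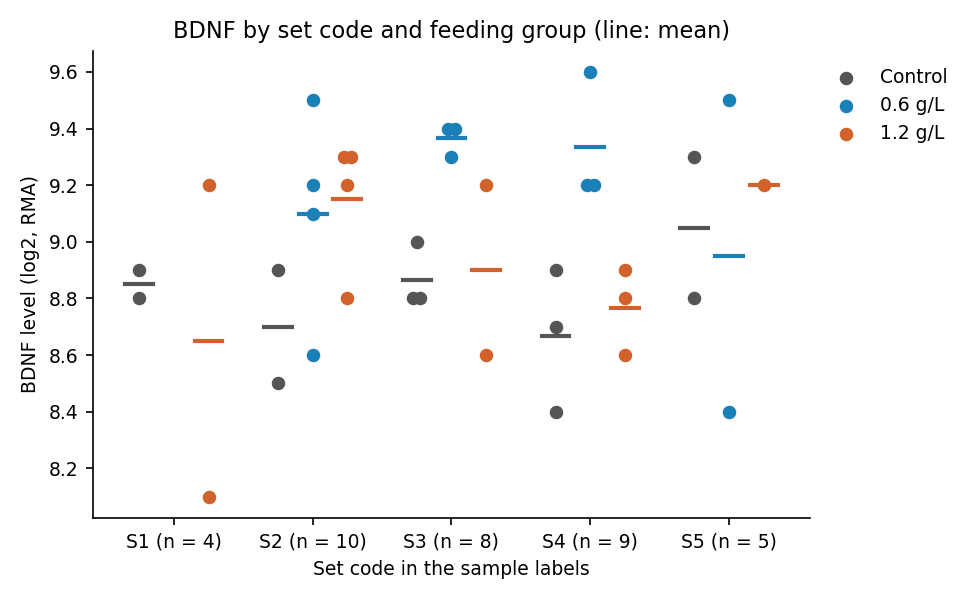
BDNF level (log2) by set code and feeding group, 1 point per sample, with a line at each mean. Medium-dose points lie above all control points in S3 and S4 and straddle them in S5; S1 has no medium-dose sample.

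BDNF did not pass the test for a difference between set codes. The means were 8.75 ± 0.47 in S1 (n = 4), 9.04 ± 0.33 in S2 (n = 10), 9.06 ± 0.31 in S3 (n = 8), 8.92 ± 0.36 in S4 (n = 9) and 9.04 ± 0.44 in S5 (n = 5), all with SDs. In order from the lowest, S1, S4, S2 and S5 level with each other, and S3, neighbours differed by less than their SDs. The limma F test gave an adjusted p of 0.923, while 472 of 18006 probe sets (2.62%) were called. Whether the diet differences in BDNF varied between set codes was tested over the 32 samples of S2 to S5 (limma F test, unadjusted p = 0.215, adjusted p = 0.741). In that test 3 probe sets (0.0167%) were called. The result for BDNF depended on single samples. Leaving out 1 sample, the unadjusted p of this F test ran from 0.012 (without medium-dose replicate 12) to 0.365 (without medium-dose replicate 11). Its adjusted p ran from 0.524 to 0.86.

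Many transcripts followed BDNF from piglet to piglet. The slope of every other probe set on the BDNF level was fitted with diet and set code in the model. Of 18005, 4426 (24.6%) passed an adjusted p under 0.05 in limma, 2391 rising with BDNF (13.3%) and 2035 falling (11.3%). This count changed with the arrays and covariates used. Without high-dose replicate 2 it was 2141 (11.9%), and on the 26 arrays with the spike-in control alone it was 421 (2.34%). With the neuron and oligodendrocyte means as covariates it was 610 (3.39%), of which 488 were also among the 4426.

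Several array-wide measures followed BDNF too. Over 36 arrays BDNF correlated with the mean of neuron markers (Pearson r = 0.622 with a permutation p of 7e-05, and Spearman rho = 0.464 with a permutation p of 0.00481). It correlated inversely with the mean of oligodendrocyte markers (r = -0.614, permutation p = 3e-05; rho = -0.497, permutation p = 0.0022). How well an array correlated on average with the rest also followed BDNF (r = 0.645, permutation p = 1e-05; rho = 0.503, permutation p = 0.00197). A p of 1e-05 is the smallest that 100000 permutations can give. Adjusted over the 29 such relations computed, the p-values of r were 0.000338, 0.000174 and 7.25e-05, and those of rho 0.0199, 0.0106 and 0.0106.

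These relations were weaker without the extremes. Without the 2 arrays farthest from the BDNF median (high-dose replicate 2 and medium-dose replicate 9), r was 0.498, -0.467 and 0.578 in the same order. Within set codes S2, S3 and S4, r for the neuron mean was 0.757, 0.0245 and 0.563, so it did not hold in S3. For the oligodendrocyte mean it was -0.524, -0.766 and -0.553, and for the mean array correlation 0.748, 0.373 and 0.709. BDNF was also related to the first principal component, 19.4% of the variance. Pearson r was -0.689 (permutation p = 1e-05, adjusted 7.25e-05) and rho was -0.575 (permutation p = 0.0003, adjusted 0.0029). The sign of a principal component is arbitrary, so only the size of this relation can be read. The actin difference gave r = 0.251 (permutation p = 0.142) and rho = 0.215 (permutation p = 0.205). Unlike the others, its r rose without the 2 arrays, to 0.385 (permutation p = 0.0243, adjusted 0.0765). Within S2, S3 and S4 it was 0.398, 0.753 and -0.0163. The hybridisation control bioB gave r = -0.340 (permutation p = 0.0432, adjusted 0.0894). With diet and set code means removed its r was -0.421 (permutation p = 0.0219, adjusted 0.0453). It was -0.127 without the 2 arrays, and 0.0366, -0.888 and -0.00401 within S2, S3 and S4. BDNF averaged 9.03 ± 0.31 on arrays with the spike-in control (SD, n = 26) and 8.86 ± 0.44 on those without it (SD, n = 10).

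The named gene most like BDNF was NRN1, neuritin. It encodes a membrane-anchored protein that promotes the growth of neurites and is itself induced by neuronal activity and by neurotrophins. Likeness was measured as the Pearson r over 36 arrays after diet and set code means were removed. NRN1 ran from 10 through a median of 10.55 to 11 in controls, from 10.1 through 10.8 to 11.3 at the medium dose, and from 9.8 through 10.55 to 10.9 at the high dose. Its likeness to BDNF was 0.912, and its slope was 0.84 per log2 unit of BDNF (SE 0.07, limma adjusted p = 8.64e-09). Over the levels themselves, diet and set code means included, the correlation was close to this (r = 0.921, permutation p = 1e-05; rho = 0.903, permutation p = 1e-05; adjusted over all probe sets 0.000438 and 0.000766). It held within every diet, with r = 0.931 in controls, 0.925 at the medium dose and 0.903 at the high dose. Within S2, S3 and S4 it was 0.914, 0.843 and 0.936, on arrays with and without the spike-in control 0.912 and 0.948, and without the 2 extreme arrays 0.895. A second NRN1 probe set gave a likeness of 0.666 and was also called.

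The next most alike named genes were CHGB and SCG5. CHGB, chromogranin B, a core protein of dense-core vesicles, had a likeness of 0.891 and a slope of 0.92 (SE 0.09, limma adjusted p = 4.99e-08). CHGB ran from 9.9 through a median of 10.35 to 10.8 in controls, from 9.9 through 10.65 to 11.2 at the medium dose, and from 9.8 through 10.55 to 10.7 at the high dose. SCG5, the chaperone 7B2 of proprotein convertase 2, had a likeness of 0.852 and a slope of 0.57 (SE 0.07, limma adjusted p = 1.58e-06). QPCT, the glutaminyl cyclase that caps peptide ends, was last of the 12 most alike with a likeness of 0.825, and had the steepest slope of them, 1.41 (SE 0.17, limma adjusted p = 1.59e-06).

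The other 8 of these 12 genes had diverse roles, and their likeness lay between 0.829 and 0.851. They were ACOT7, an acyl-CoA thioesterase, ACVR1, a receptor for bone morphogenetic proteins, MKKS, a chaperonin-like protein of the cilium, and GPHN, gephyrin, the scaffold of inhibitory synapses. The remaining ones were CD247, known as a chain of the T cell receptor, SYNE1, a nuclear envelope protein, DIRAS3, a small GTPase, and SPOCK3, a brain proteoglycan. Second probe sets of ACVR1, CD247, MKKS and SPOCK3 were called in the same direction, with likenesses of 0.606, 0.770, 0.501 and 0.851. These genes were picked for their likeness out of 6033 other named genes, so the values describe them. Probe sets without a single gene symbol were left out of this ranking.

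The 12 were picked on these same arrays, so passing the slope test again is not separate support. All 12 passed it under each setting in which it was repeated. These settings included leaving out each sample or each set code in turn, the arrays with the spike-in control alone, array weights, and either composition means, the mean array correlation or the actin difference as covariates. With the neuron and oligodendrocyte means as covariates the limma adjusted p was 4.1e-06 for NRN1, 1.24e-05 for CHGB and 0.00104 for SCG5.

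**Figure D3:**
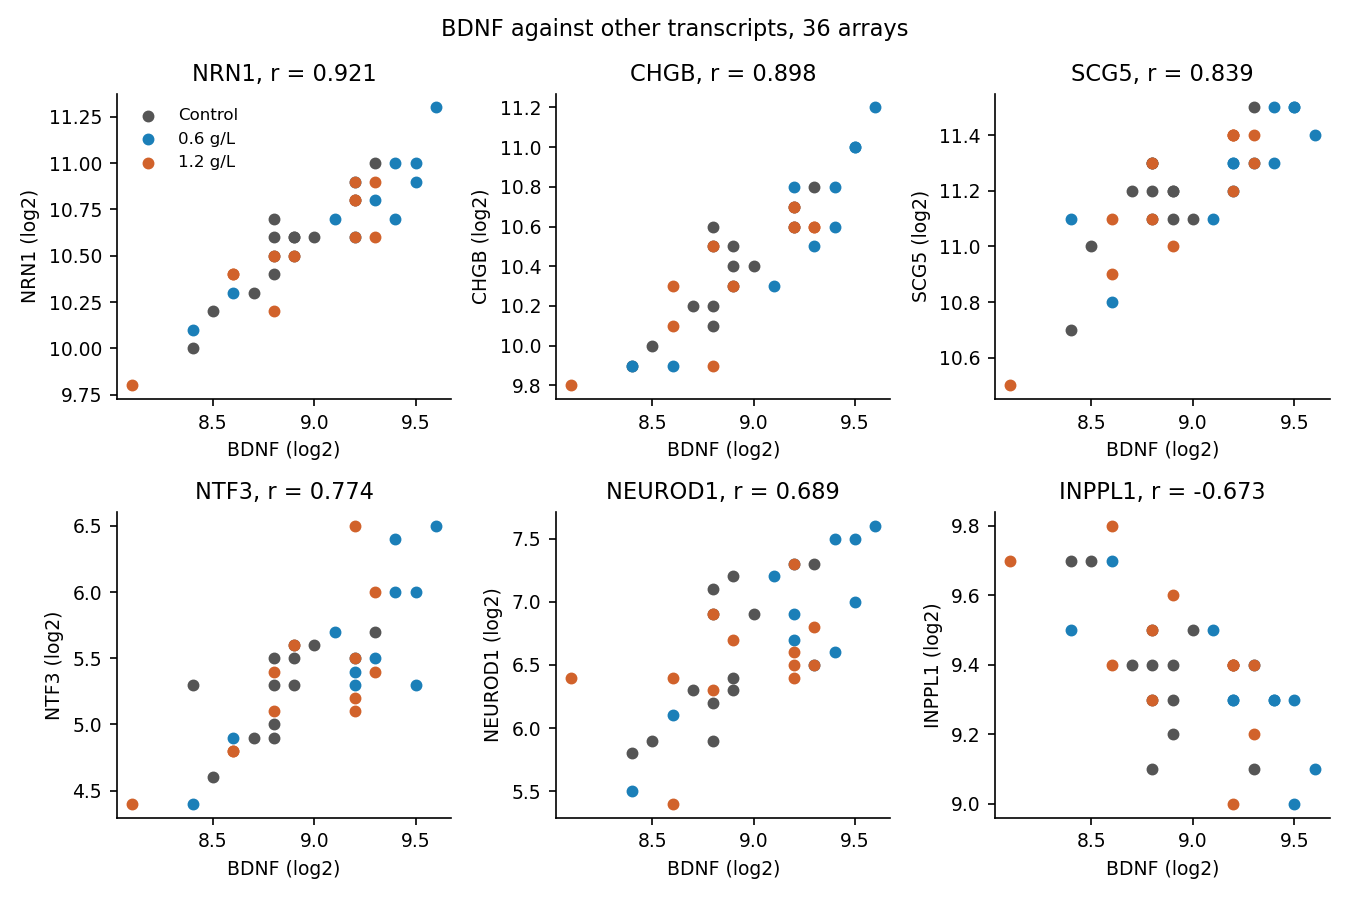
Levels (log2) of 6 transcripts against BDNF over the 36 arrays, coloured by diet, with the Pearson r over all arrays above each panel; values are rounded to 1 decimal, so some points coincide. NRN1, CHGB and SCG5 rise with BDNF (r = 0.921, 0.898 and 0.839), NTF3 and NEUROD1 less tightly (0.774 and 0.689), and INPPL1 falls (-0.673).

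The genes that ran most opposite to BDNF were led by INPPL1, the lipid phosphatase SHIP2 that limits phosphoinositide 3-kinase signalling. INPPL1 ran from 9.1 through a median of 9.4 to 9.7 in controls, from 9.0 through 9.3 to 9.7 at the medium dose, and from 9.0 through 9.4 to 9.8 at the high dose. Its likeness was -0.826 and its slope was -0.48 (SE 0.06, limma adjusted p = 9.22e-06). A second, dimmer INPPL1 probe set did not share this (likeness -0.113, limma adjusted p = 0.694).

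EPB41L2, a membrane cytoskeleton protein, followed with -0.782 and a slope of -0.40 (SE 0.06, limma adjusted p = 7.45e-05). The other 6 of the 8 were the kinase ARAF, the splicing regulator PTBP1, KIAA1958, the aminopeptidase NPEPL1, the kinase CDK10 and NFKBIB, an inhibitor of NF-kappa-B, with likenesses from -0.757 to -0.731. Other probe sets of PTBP1 and NFKBIB did not pass. These 8 were not all called in every setting, but they were also picked at likenesses mostly smaller in size than those of the 12. Of the 8, 5 were called on the arrays with the spike-in control alone and 4 with the composition means as covariates. With the mean array correlation as a covariate 5 were called (3.23% of all probe sets), and with array weights 7 (4.05%).

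The fitted diet differences of these partners did not pass adjustment. At the medium dose all 12 most alike genes lay above control, from 0.09 for CD247 to 0.29 for QPCT. The median over all named genes was 0.000743. The 12 and the 8 were picked for likeness to BDNF, itself 0.36 above control, so their signs are not separate evidence. None of the 12 had an unadjusted p under 0.05. NRN1 was 0.24 above control (SE 0.13, limma adjusted p = 0.743) and CHGB 0.28 above (SE 0.14, limma adjusted p = 0.727). At the high dose 7 of 12 lay above control, and the 12 ran from -0.18 to 0.07. Of the 8 opposite genes, 6 lay below control at the medium dose, and 1 of them, NPEPL1, had an unadjusted p under 0.05 (-0.20, SE 0.09, limma adjusted p = 0.676).

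**Figure D4:**
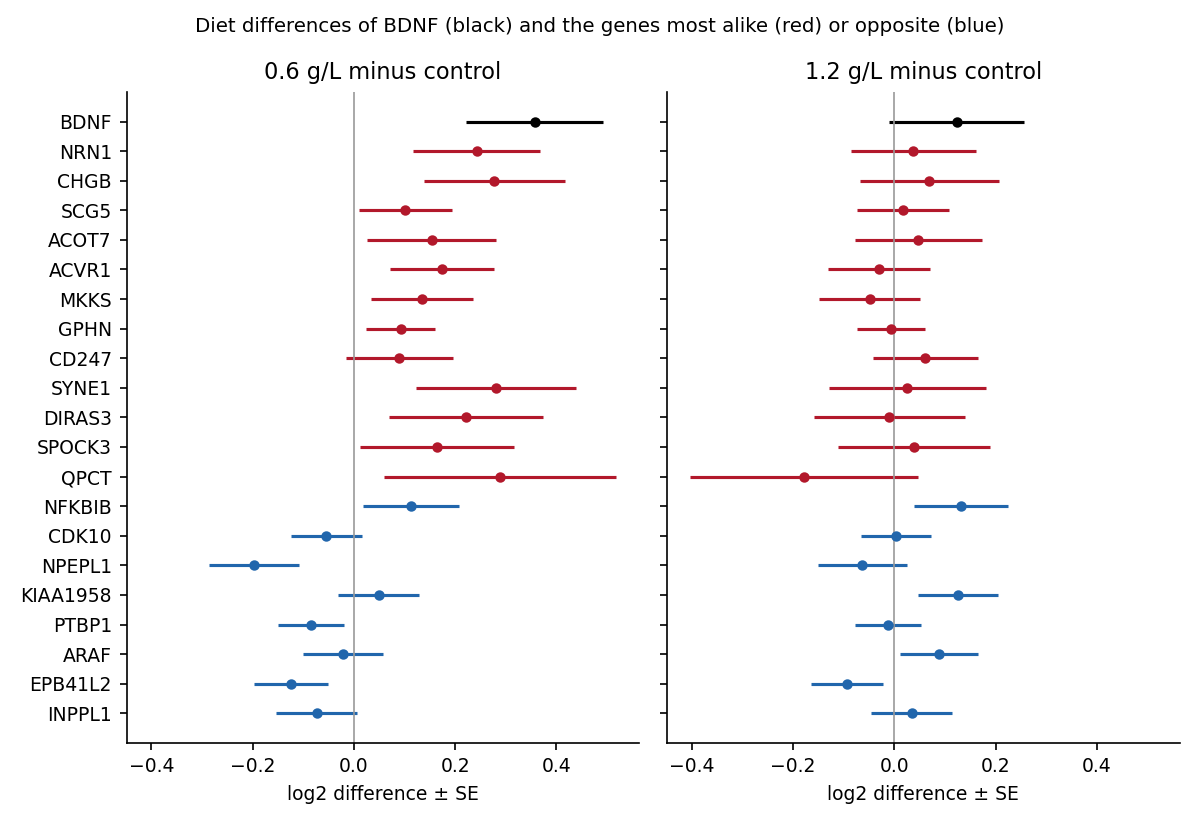
Fitted log2 difference from control with its SE at the medium dose (0.6 g/L) and the high dose (1.2 g/L), set code as a block, for BDNF, the 12 genes most like it and the 8 most opposite. At the medium dose the 12 lie between 0.09 and 0.29 and BDNF at 0.36; at the high dose the 12 lie on both sides of 0.

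Among the neurotrophins and their receptors, NTF3 and NTRK3 were among the 3 tested besides BDNF. NTF3, neurotrophin 3, signals mainly through TrkC. It ran from 4.6 through a median of 5.3 to 5.7 in controls, from 4.4 through 5.5 to 6.5 at the medium dose, and from 4.4 through 5.3 to 6.5 at the high dose. The transcript was dim, close to the filter at 4.92, yet its likeness to BDNF was 0.812 and its slope 1.29 (SE 0.16, limma adjusted p = 3.42e-06). It held within S2, S3 and S4 (r = 0.828, 0.859 and 0.806) and with the composition means as covariates (limma adjusted p = 0.000809). At the medium dose NTF3 was 0.33 above control (SE 0.21, limma adjusted p = 0.821). NTRK3, the TrkC receptor, had a likeness of 0.403 on its brightest probe set (limma adjusted p = 0.0709). Another of its probe sets gave 0.602 (limma adjusted p = 0.00473) and the last 0.284 (limma adjusted p = 0.253). NTF4, NTRK2 (TrkB) and SORT1 had no named probe set and were not analysed here.

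For lists of genes, 1 probe set per gene was counted, and over all 6033 other named genes 923 rose with BDNF (15.3%) and 624 fell (10.3%), with a median likeness of -0.00274. Without high-dose replicate 2, 549 rose (9.1%) and 224 fell (3.71%). With the neuron and oligodendrocyte means as covariates, 205 rose (3.4%) and 48 fell (0.796%). Of 3 neurotrophin and receptor genes tested, 1 rose with BDNF, with or without that sample, and the median likeness was 0.462.

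Of 16 genes of precursor processing and release, 4 rose with BDNF and 0 fell, with a median likeness of 0.112 (2 rose without high-dose replicate 2). They were SCG5, the protease inhibitor SERPINI1 (0.665), the convertase PCSK1 (0.533; limma adjusted p = 0.00999) and TSNAX, translin-associated factor X, which takes part in BDNF mRNA transport (0.448). PLAT, the plasminogen activator that starts plasmin cleavage of the precursor, had a likeness of -0.387 (limma adjusted p = 0.0874). FURIN and CPE had no named probe set.

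Of 19 regulators of BDNF transcription, 3 rose and 3 fell with BDNF, with a median likeness of 0.0669 (1 and 1 without high-dose replicate 2). HDAC2, a histone deacetylase (0.598), and the activity-regulated factors MEF2D (0.572) and MEF2A (0.574) rose. HDAC1 (-0.571), the DNA methyltransferase DNMT3A (-0.579) and the histone methyltransferase EZH2 (-0.544) fell. None of the 19 was called by limma with the composition means as covariates. CREB1, the cAMP-responsive activator of the BDNF promoter, had a likeness of -0.00944 (limma adjusted p = 0.978).

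Genes induced by neuronal activity had calls in both directions, as all named genes did (15.3% rose and 10.3% fell). Of 32, 9 rose and 4 fell, with a median likeness of 0.192 (4 and 1 without high-dose replicate 2). Besides NRN1, the signalling regulator RGS2 rose (0.799, slope 0.98, SE 0.13, limma adjusted p = 8.87e-06), as did the nuclear receptor NR4A3 (0.722) and secretogranin SCG2 (0.662). A dimmer second probe set of RGS2 and of NR4A3 did not pass. The immediate-early genes FOS (0.396, limma adjusted p = 0.0716) and EGR1 (0.262, limma adjusted p = 0.264) did not pass. ATF3, PLK3, GEM and IER3, which respond to stress or growth signals, fell (limma adjusted p = 0.00832, 0.0138, 0.0412 and 0.0499). None of these passed with the composition means as covariates (limma adjusted p = 0.154, 0.725, 0.188 and 0.497).

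Of 25 TrkB downstream signalling genes, 4 rose and 4 fell, with a median likeness of -0.136 (2 and 0 without high-dose replicate 2). CAMK2G, a calcium/calmodulin-dependent kinase, rose (0.708), and the kinases MAPK3 (-0.563), AKT1 (-0.517) and FYN (-0.525) fell.

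All 6 presynaptic vesicle genes tested rose with BDNF, with a median likeness of 0.662. Among them were the synapsins SYN1 (0.701) and SYN2 (0.692), which tether vesicles, and SNAP25 (0.690), a fusion protein. Without high-dose replicate 2, 3 of 6 were called, and with the composition means as covariates 1, SYN2 (limma adjusted p = 0.0064). SYN1, SNAP25 and SYT1 of this list are also neuron markers. The neuron mean used as a covariate contains them, so their loss under it is partly built in. Of 10 GABA and interneuron genes, 5 rose and 0 fell, with a median of 0.429 (2 without that sample), including GPHN and the GABA-synthesising enzyme GAD1 (0.611). The neuropeptide list had 2 of 14 called, CHGB and SCG2, both rising, with a median of 0.179. The peptides NPY (0.352), SST (0.146) and PDYN (0.224) did not pass.

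Of 7 dentate granule cell genes, 3 rose and 0 fell, with a median of 0.223 (2 rose and 1 fell without high-dose replicate 2). LRRTM4, a synapse organiser of granule cells, had a likeness of 0.741. NEUROD1, a granule neuron transcription factor, had a likeness of 0.656 and a slope of 1.11 (SE 0.22, limma adjusted p = 0.000816). Both also passed with the composition means as covariates, at limma adjusted p of 0.0437 and 0.0335. The third riser, AKAP7 (0.444, limma adjusted p = 0.0448), did not pass with these covariates (limma adjusted p = 0.395). PDYN (0.224), IGFBP5 (0.085), JUN (-0.195) and DSP (-0.381) were not called. The CA field and subiculum list was mixed, with 1 of 8 rising (DKK3, 0.752), 2 falling and a median of 0.0363.

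Of 17 stress axis and glucocorticoid genes, 2 rose and 0 fell, with a median of -0.0303. These were KLF9, a glucocorticoid-induced factor (0.689), and the chaperone HSPA8 (0.632). Their other probe sets did not pass and had negative likenesses, -0.402 for KLF9 and -0.074, -0.023 and -0.434 for HSPA8. Of 20 genes of lactoferrin, iron and sialic acid handling, 4 rose and 2 fell, with a median of 0.0921 (1 and 1 without high-dose replicate 2). GNE, the enzyme that starts sialic acid synthesis, had a likeness of 0.757 and also passed with the composition means as covariates (limma adjusted p = 0.022). FTL, the ferritin light chain, fell (-0.603, limma adjusted p = 0.00499) and did not pass with these covariates (limma adjusted p = 0.637). Another FTL probe set was not called (0.107). Endogenous lactoferrin, LTF, averaged 4.57 and lay below the filter. Of 3 glutamate receptor and scaffold genes, 1 rose (DLG3, 0.569) and 1 fell (HOMER2, -0.554), with a median of 0.25 (0 and 1 without high-dose replicate 2).

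Markers of neurons rose with BDNF and those of the oligodendrocyte lineage fell. Of 11 neuron markers, 10 rose and 0 fell, with a median of 0.551, led by STMN2 (0.800). This list shares SYN1, SNAP25 and SYT1 with the presynaptic list, so the 2 lists are not separate results. Of 12 oligodendrocyte markers, 7 fell, with a median of -0.491, led by CNP (-0.623), and all 3 precursor markers fell. Without high-dose replicate 2 these counts were 4 of 11, 2 of 12 and 0 of 3. On the arrays with the spike-in control alone they were 2, 0 and 0, against 2.14% of named genes rising and 0.398% falling.

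Other cell types showed few calls. Of 10 astrocyte markers 2 rose and 1, GFAP, fell (-0.564). Of 11 microglial markers 1 fell, of 14 endothelial and pericyte markers 2 fell, of 6 choroid plexus and ependymal markers 1 fell, and of 5 meningeal and fibroblast markers 1 rose. The blood list did not move as a group, with HBB rising (0.762) and HBM falling (-0.724) among 3 tested. Of markers of neighbouring regions, 1 of 1 striatal marker, DRD2, and 1 of 6 thalamic and hypothalamic markers, OXT, fell, and 0 of 2 neocortical and amygdalar markers was called by limma. Without high-dose replicate 2, limma called 0 of the astrocyte, 0 of the endothelial and pericyte and 0 of the thalamic and hypothalamic markers, and the counts of the microglial, choroid plexus, meningeal, blood and striatal lists stayed as given. No member of any list passed adjustment in a diet comparison by limma.

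**Figure D5:**
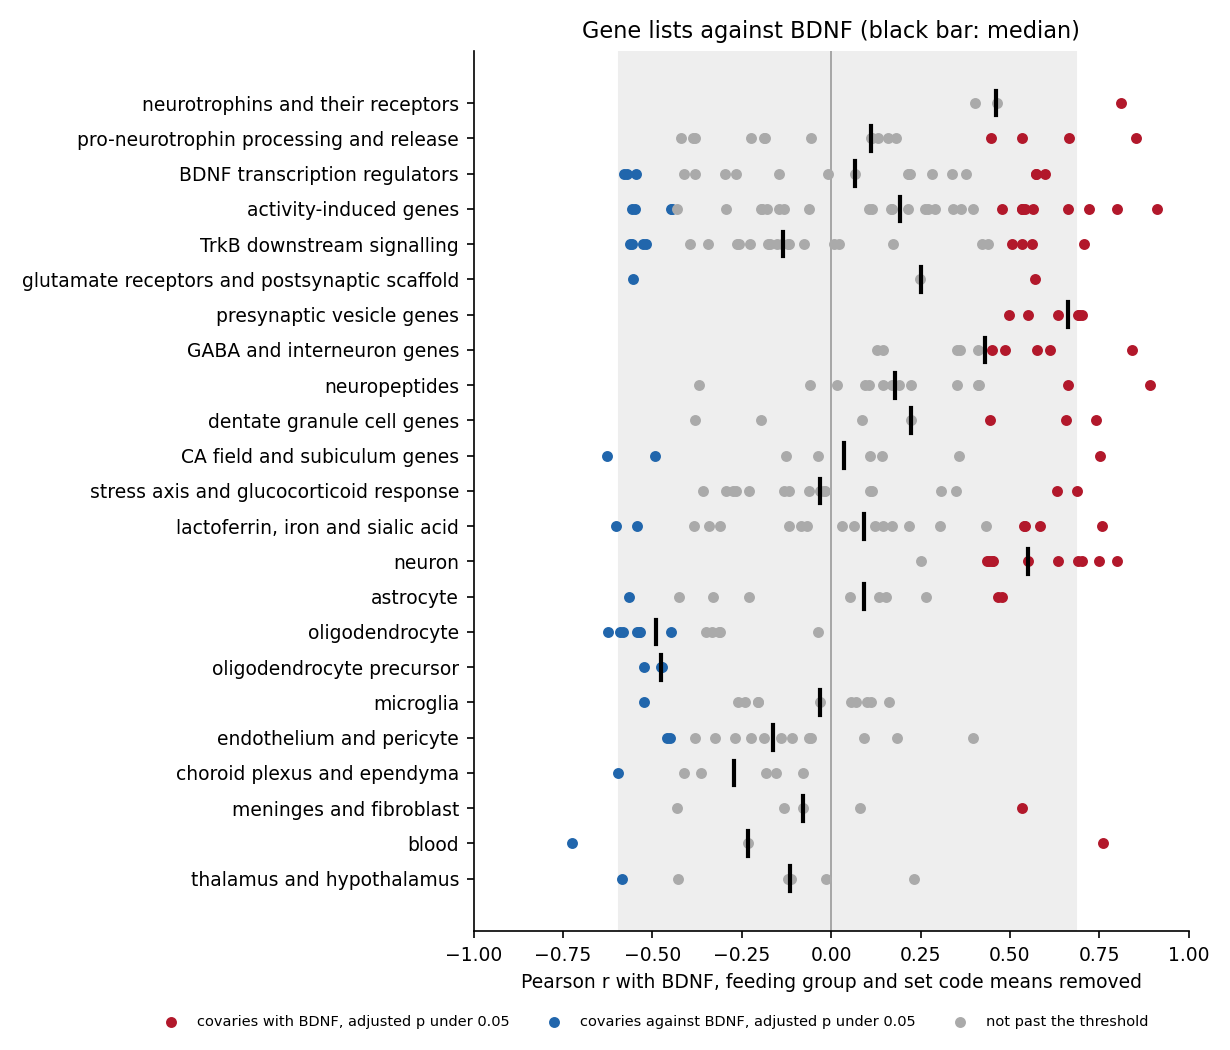
Likeness to BDNF (Pearson r over 36 arrays with diet and set code means removed) of each gene in the lists with at least 3 genes tested, coloured by whether the slope passed an adjusted p under 0.05, with a black bar at each median. The grey band spans the central 95% of all named genes, -0.593 to 0.684; presynaptic and neuron lists lie to the right (medians 0.662 and 0.551) and oligodendrocyte lineage lists to the left (-0.491 and -0.476).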

How the data were processed

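The authors deposited log2 values rounded to 1 decimal. The submitters' processing notes name RMA and Affymetrix Expression Console 1.1. RMA corrects background and gives all arrays a common distribution, so global shifts are lost. The genome build is not given in the sources used here.

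Array controls (124) were left out, as were probe sets whose mean lay under the 25th percentile (4.92), leaving 18006. Names came from the 2016 array annotation, updated through RefSeq (10069 probe sets had 1 symbol, 198 several, 13732 none; 9961 matched). The brightest probe set stood for a gene. Diet and set code were fitted in limma 3.58.1 (R 4.3.3), two-sided, with Benjamini-Hochberg adjustment at 0.05. The slope fit added the BDNF level. Correlations used 100000 permutations (scipy 1.17.1). The fits were checked on simulated data. Intervals are 95%.

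Named were BDNF, the 12 most alike and 8 most opposite genes, up to 3 members of each pathway list with the smallest p, and a fixed set of neurotrophin and activity genes; other list members were named after their values were seen. BDNF and the 26 lists (572 symbols) were chosen with earlier results of these data known. The spike-in control (present above log2 6), actin and array-correlation settings and the recounts of the lists were chosen after seeing the data.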

Additional observations from a re-analysis of the deposited data

How the results depend on the processing

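The 3 diet differences in BDNF kept their direction and stayed short of an adjusted p under 0.05 in every setting run. Leaving out 1 sample, medium minus control ran from 0.31 to 0.46, high minus control from 0.08 to 0.21 and high minus medium from -0.31 to -0.18. Leaving out 1 set code, they ran from 0.24 to 0.46, from 0.00026 to 0.19 and from -0.39 to -0.11. The adjusted p of medium minus control ran from 0.227 to 0.951 over all of these. The replicate numbers gave no pairing: samples sharing a number correlated from -0.447 to 0.306, above 0.1 in 2 to 4 of 12 pairs. With a replicate block and no set code, medium minus control was 0.38 (limma adjusted p = 0.535) and 3169 probe sets covaried with BDNF. The covariation count, 4426, ran from 2141 (without high-dose replicate 2) to 4809 over samples left out. It was 2031 without S1, 2229 without S2, 729 with array weights, 610 with neuron and oligodendrocyte means as covariates, and 1619 with 1 named probe set per gene. Of settings chosen after seeing the data, it was 2942 with a second block for the spike-in control, 421 on the arrays with that control alone, 2352 without the 3 arrays of lowest mean correlation, 582 with that correlation as a covariate and 5044 with the actin 3-prime minus 5-prime difference as a covariate. For 1 named probe set per gene, fewer were tested, and for the settings that leave samples out, fewer arrays were used; otherwise the cause was not tested. By permutation of Pearson r, 3817 probe sets passed, against 1839 without the 2 arrays farthest from the BDNF median and 2249 by Spearman rho. Of 29 relations to list means and array measures, 13 passed, against 8 without those 2 arrays. Without them r of SST turned from 0.02 to -0.10. Values carry 1 decimal, which limits small differences.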
